A study of Xenopus tropicalis with 12 samples.

Results

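The regions described here are the places on the Xenopus tropicalis genome where thyroid hormone receptor (TR) chromatin immunoprecipitation gave a peak in hormone-treated tails of both genotypes and in no untreated tail. Peaks of 12 lists were joined into merged regions where they shared at least 1 bp. A region was a member when at least 1 wild-type T3 list and at least 1 TRα knockout T3 list had a peak of 3 or more fragments at the summit, and none of the 6 control lists had a peak of any height. Of 256032 merged regions, 706 met this rule, which is 0.276% of all regions. The members were thus chosen by the presence and height of peaks in these 12 lists, so both are given below as a description and without a test.

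The study compared tail of wild-type (WT) tadpoles with tail of TRα (-/-) tadpoles of the same parents, called KO here (TRaKO in the labels). Tadpoles were at about stage 54. Those of the T3 groups had been kept in 10 nM T3 for 18 hours and those of the control groups had not, which made 4 groups of 3 libraries: untreated and T3-treated WT, and untreated and T3-treated KO. The gene for TRβ was not named among the alterations of the KO tadpoles. The antibody was a non-commercial one described only as recognising TR. The design note speaks of technical replicates of material merged from several tadpoles, so differences between libraries of a group, and p-values over them, may be technical. In the file headers, libraries 1 and 2 of each group carry the same sample index and library 3 another, so whether libraries 1 and 2 are separate samples is not known, and n = 3 may overstate the number of distinct samples. KO T3 3, the shallowest library, stood apart in that 49.0% of its peaks had a single fragment, and without it the rule found 673 regions.

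TRs are nuclear receptors that sit on DNA mostly as a pair with the retinoid X receptor, at thyroid hormone response elements. In the unliganded state they recruit corepressors and hold target genes down, and on binding T3 they exchange these for coactivators. In tadpoles, T3 drives metamorphosis, and the tail is the organ that is resorbed at its climax. TRα is expressed early and widely, whereas TRβ is itself a direct target of T3 and rises when hormone rises. A site that is occupied after T3 in WT and in KO tail, and not before, is where such recruitment with TRβ would be looked for. Genes and response elements at the regions were not analysed here, because no sequence or annotation of build 9.1, the build of the peak lists, was used.

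Exchanging the treatment labels gave more regions in 2 of 3 arrangements. The same rule applied to control in both genotypes (a peak in WT control and KO control, none in any T3 list) found 1287 regions (0.503% of all). With the labels exchanged in KO alone, 626 regions (0.245%) had peaks in WT T3 and KO control only. With the labels exchanged in WT alone, 1802 regions (0.704%) had peaks in WT control and KO T3 only. The count of 706 for T3 in both genotypes was therefore the second lowest of the 4 arrangements. Taking only regions with a peak of 3 or more fragments in both groups concerned, the share without a peak in the other 6 lists was 9.94% of 7100 for T3, 16.4% of 7863 for control, 10.4% of 6029 for WT T3 with KO control and 18.8% of 9601 for WT control with KO T3.

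Under the rule of 3 or more fragments, the 4 counts had the same order as sequencing depth. After removal of duplicates the groups held 1602853 fragments (WT T3), 2517089 (KO T3), 2887800 (WT control) and 1749069 (KO control), summed over 3 libraries each, and single libraries held 149532 to 1547243. The groups that had to have a peak held 0.620 times the fragments of those that had to have none for the 626 regions, 0.889 times for the 706, 1.13 times for the 1287 and 1.61 times for the 1802. With peaks of any pileup the order differed from that of depth. WT T3 with KO control then had 2583 regions against 2049 for T3, and control had 3528 against 3198 for WT control with KO T3. Libraries of most alike depth, 1 per group, were also chosen after the data were seen. These were WT T3 3, KO T3 1, KO control 3 and WT control 2, the deepest 1.32 times the shallowest. In them the T3 arrangement had the fewest regions, 377, against 806 for control, 570 for WT T3 with KO control and 750 for WT control with KO T3. The T3 libraries were the shallowest of these (774170 and 820314 fragments, against 858074 and 1024937), so here the T3 arrangement had the least depth. With lists cut to equal length, the counts were 785 for T3, 886 for control, 612 for WT T3 with KO control and 1468 for WT control with KO T3. This brought T3 and control to a ratio of 0.886, against 0.549 with the full lists. The 706 became 336 without WT T3 3 and 291 without KO T3 2. Among 21 alternatives, T3 regions outnumbered control regions only without WT control 2, WT control 3 or KO control 3. The counts of T3 and control regions were then 981 and 840, 1000 and 713, and 868 and 599. Without WT control 1, KO control 1 or KO control 2, they were 796 and 1188, 736 and 1187, and 815 and 886. Leaving out a control library removes peaks that exclude T3 regions and also peaks that make control regions. The reason for the change of order was not tested.

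**Figure D1:**
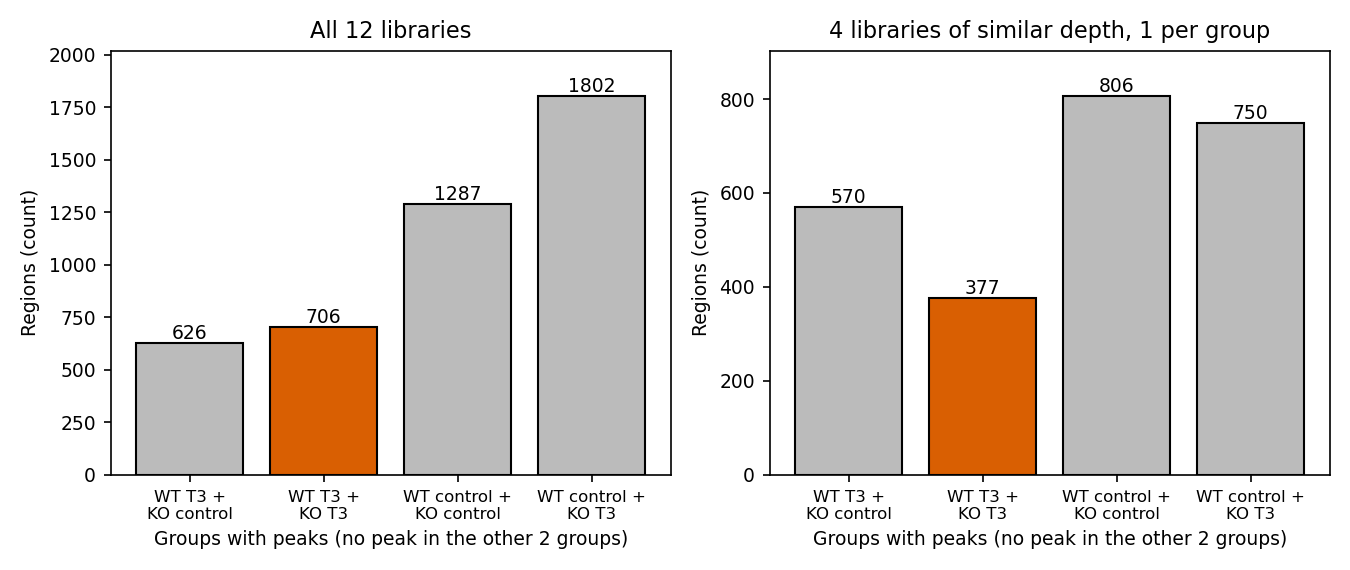
Number of merged regions with a peak in both named groups and none in the other 6 lists (left, all 12 libraries) or the other 2 lists (right, 4 libraries of similar depth), for the 4 ways of assigning treatment labels within genotype. The T3 bar, in orange, stands at 706 on the left and at 377 on the right, where it is the lowest of the 4 and its libraries are the shallowest used.

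Members were weak and mostly seen in 1 library of each genotype. Of the 706, 499 (70.7%) had a peak in 2 lists, the fewest the rule allows, 175 in 3, 30 in 4 and 2 in 5, and none had a peak in all 6 T3 lists. The corresponding share in 2 lists was 73.8% for the control regions, 78.4% for WT T3 with KO control and 63.3% for WT control with KO T3. A peak in at least 2 of 3 lists of both genotypes was found in 19 members, against 48, 16 and 148 regions in the same order. Peaks in all 3 WT T3 lists were found in 7 members, out of 42 regions with peaks in these and in no WT control list. Peaks in all 3 KO T3 lists were found in 8 members, out of 160 such regions of KO.

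The libraries that contributed most members were the deepest of their groups. WT T3 1, 2 and 3 had a peak in 122, 263 and 428 members, and KO T3 1, 2 and 3 in 285, 480 and 75. Among the members of 2 lists, 183 (36.7%) were shared by WT T3 3 and KO T3 2, and 2 (0.401%) by WT T3 1 and KO T3 3. In each T3 list, peaks at members made up 1.79% to 2.24% of its peaks of 3 or more fragments, a share that was close to the same in shallow and deep libraries. In 427 members (60.5%), a deeper T3 library of the same genotype lacked the peak that a shallower one had, and this held for 66.1% of the control regions, 65.8% of the WT T3 with KO control regions and 61.3% of the WT control with KO T3 regions.

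Height at the threshold was as follows. In 447 members (63.3%) the lower of the best WT T3 and best KO T3 peaks had exactly 3 fragments, in 100 (14.2%) it had 5 or more and in 2 it had 10 or more. Just outside the rule, 1131 regions without a control peak had a lower best of 2 fragments. A further 181 regions failed because a single control list had a peak of 2 fragments, the lowest in any control list. The lists did not reach equally low. The lowest peak had 3 fragments in WT control 3 and KO T3 2, the deepest libraries, 1 in KO T3 3 and 2 in every other list. A peak of any height thus meant 3 or more fragments in WT control 3 and KO T3 2, under each label arrangement. Among the control regions 15.9% had a lower best of 5 or more, 9.58% did among the WT T3 with KO control regions and 28.6% among the WT control with KO T3 regions.

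The members seen in the most T3 lists were low. They are numbered here along the genome (M1 to M706), with coordinates of build 9.1. M77, on chromosome 1 from 180504839 to 180505512, showed 3 and 5 fragments in WT T3 libraries 2 and 3 and no peak in library 1. In the KO T3 libraries it had 3, 3 and 2 fragments. M224, on chromosome 3 from 103659532 to 103660021, showed 2 and 5 fragments in WT T3 libraries 1 and 3 and no peak in library 2. Its KO T3 peaks had 3, 3 and 1 fragments. These were the only members in 5 lists, and no peak of either exceeded 5 fragments.

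Members in 4 lists reached greater heights. M68, on chromosome 1 from 164492567 to 164493412, showed 5, 9 and 5 fragments in the WT T3 libraries and 9 in KO T3 library 1, and no peak in KO T3 library 2, the deepest library of the study. The tallest peaks of the genotypes had their summits at the same base. M421, on chromosome 6 from 30867454 to 30867854, showed 4, 8 and 11 fragments in the WT T3 libraries and 7 in KO T3 library 2. All 3 WT libraries thus had a peak at both places, and 1 of 3 KO libraries did.

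M67, on chromosome 1 from 163044963 to 163045280, showed 7 and 10 fragments in WT T3 libraries 2 and 3 and 5 in both KO T3 libraries 1 and 2, with summits 24 bp apart. M58, on chromosome 1 from 107653891 to 107654203, showed 3 and 5 in the same WT libraries and 6 and 9 in the same KO libraries. Its neighbourhood was free of control peaks for 5000 bp on either side, which was otherwise true only of M224 among the 23 named members. M621, on chromosome 9 from 6561649 to 6562490, showed 2 and 6 in WT libraries 2 and 3 and 4 and 7 in KO libraries 1 and 2. M656, on chromosome 9 from 74010038 to 74010803, showed 3 and 5 in WT libraries 1 and 3 and 5 and 8 in KO libraries 1 and 2. Both had taller peaks in KO than in WT, unscaled for depth. M60, on chromosome 1 from 121593457 to 121594933, showed 3 and 6 in WT libraries 2 and 3 and 5 in both KO libraries 1 and 2, and lay 26 bp from a control peak.

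M484, on chromosome 7 from 1110356 to 1110945, showed 5, 7 and 4 fragments in the WT T3 libraries and 5 in KO T3 library 1. M668, on chromosome 10 from 945214 to 946052, showed 4 in both WT T3 libraries 2 and 3, and 16 and 4 in KO T3 libraries 2 and 3. M225, on chromosome 3 from 104759663 to 104760065, showed 8 and 7 in WT T3 libraries 2 and 3, and 4 and 2 in KO T3 libraries 2 and 3. None of the 12 members with the most lists had a peak in more than 5 of 6 T3 libraries, and the libraries that lacked one were not always the shallow ones.

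**Figure D2:**
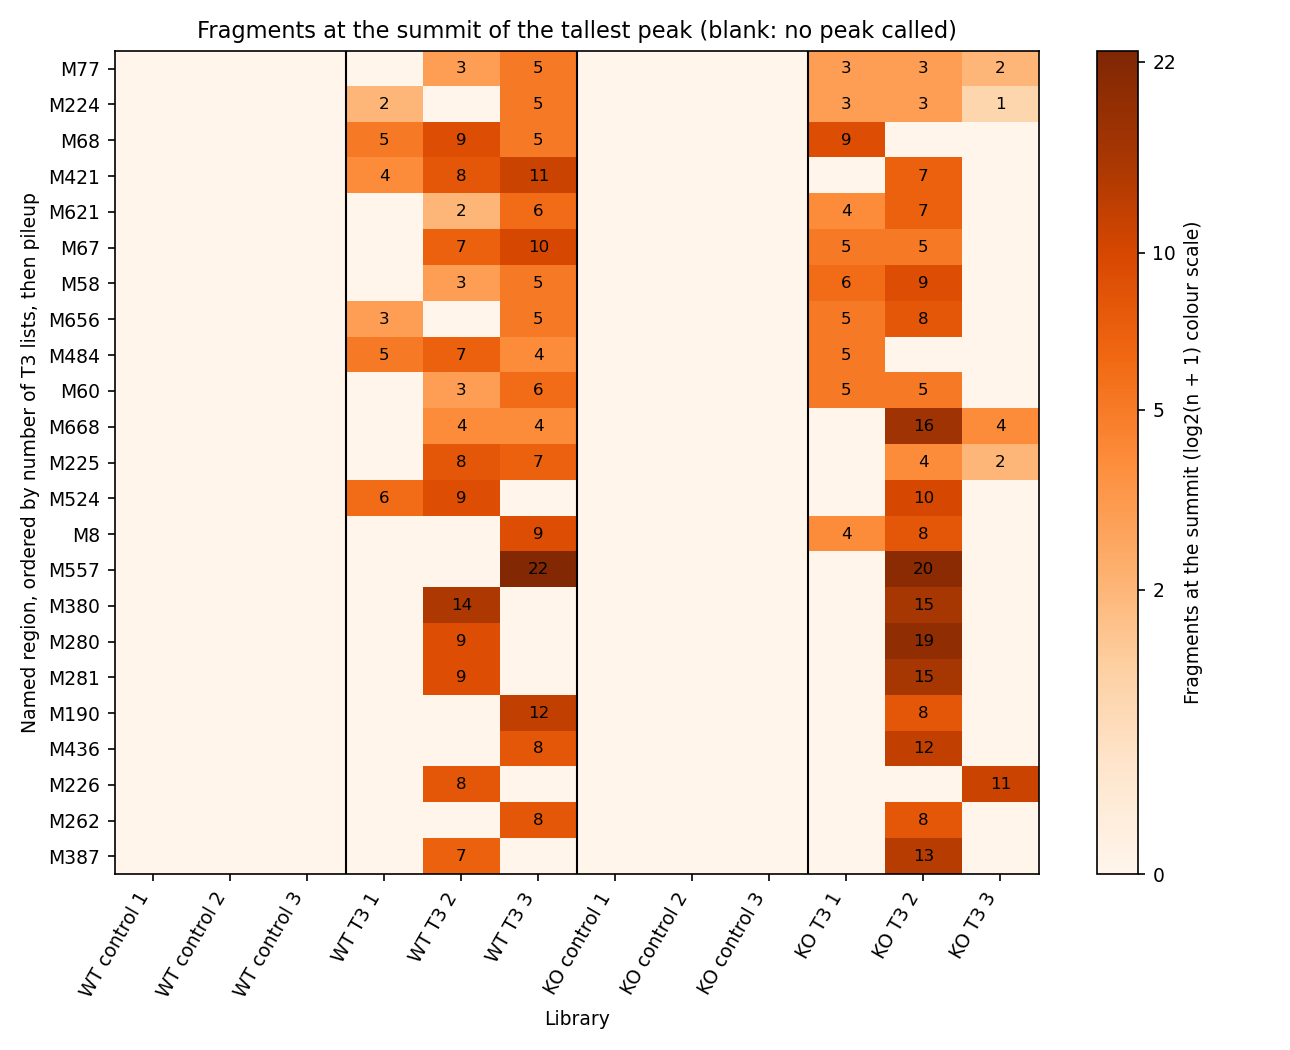
Fragments at the summit of the tallest peak in each library (columns, 4 groups of 3 separated by lines) for the 23 named regions (rows), with blank cells where no peak was called. The 12 upper rows have peaks in 4 or 5 T3 libraries, of up to 16 fragments, and the lower rows in 2 or 3, of up to 22 fragments; control columns are blank because the rule required it.

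Of the 12 tallest members, 9 had a peak in a single library of each genotype, and M68, M524 and M8 had more. M557, on chromosome 8 from 2220235 to 2220583, showed 22 fragments in WT T3 library 3 and 20 in KO T3 library 2, with summits 18 bp apart, and no peak in the other 4 T3 lists. At the rate of WT T3 3 (28.4 fragments per 1000000), WT T3 2 would have had 15.0 fragments, and it had no peak. M380, on chromosome 5 from 141232866 to 141233151, showed 14 fragments in WT T3 library 2 and 15 in KO T3 library 2. At the rate of WT T3 2, 20.5 fragments would stand in WT T3 3, which had no peak.

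M226, on chromosome 3 from 105291042 to 105291966, was the tallest peak that the shallowest library contributed to the named members. It had 11 fragments in KO T3 3 and 8 in WT T3 2, at summits 726 bp apart. Its rate in KO T3 3, 73.6 fragments per 1000000, would place 113.8 fragments in KO T3 2, where no peak was called. The summits were thus well apart, and the KO peak was not repeated in the deepest library of its group.

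M280 and M281 were neighbours on chromosome 4, from 36904281 to 36904714 and from 36928435 to 36928869. M280 showed 9 fragments in WT T3 library 2 and 19 in KO T3 library 2, and M281 showed 9 and 15 in the same libraries. M524, on chromosome 7 from 97086020 to 97086961, showed 6 and 9 in WT T3 libraries 1 and 2 and 10 in KO T3 library 2. These 3 shared their libraries of highest peak.

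M190, on chromosome 3 from 626652 to 627044, showed 12 fragments in WT T3 library 3 and 8 in KO T3 library 2. M436, on chromosome 6 from 94501748 to 94502318, showed 8 and 12 in the same libraries. M262, on chromosome 4 from 5736289 to 5736846, showed 8 in both of them. The pairing of these libraries was also the most frequent among all members of 2 lists. M8, on chromosome 1 from 5697256 to 5697854, showed 9 in WT T3 library 3 and 4 and 8 in KO T3 libraries 1 and 2. M387, on chromosome 5 from 145925725 to 145925956, showed 7 in WT T3 library 2 and 13 in KO T3 library 2. The tallest KO peak was in KO T3 library 2, the deepest, in each of the 12 tallest members other than M68 and M226.

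Several of the tall members lay in stretches rich in fragments, where a peak has to stand out from its surroundings to be called. The local background of a peak was recovered from the deposited pileup and fold enrichment, and the peak's own fragments were taken off. It was 47.1 times the library average at M557 in WT T3 3 and 31.7 times in KO T3 2. It was 21.7 and 22.4 times the average at M280 in the same order of genotypes, 17.5 times in both libraries at M281, and 13.5 to 21.5 times at M524. At M436 it was 9.47 and 11.6 times. Of the 11 members with at least 8 fragments in both genotypes, 5 had a peak whose background exceeded 10 times the average. Of all 706 members 7 did (0.992%), these 5 among them. A low peak over such a background is less readily called, so these shares are not matched for height. The corresponding counts were 4 of 21 tall regions for control, 0 of 3 for WT T3 with KO control and 22 of 95 for WT control with KO T3, and the shares over each whole set were 0.622%, 0.639% and 1.5%. Over all regions with a T3 peak of 3 or more fragments the share was 1.03%, close to that of the members. In the regions with a T3 peak in both genotypes that also had a control peak, this was 387 of 6394 (6.05%).

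The control lists had peaks beside these members. Within 5000 bp of M557 all 6 control lists had a peak, the tallest with 59 fragments in WT control 3. All 6 had one beside M280 (up to 25 fragments in WT control 3), M524 (up to 28 in WT control 2) and M436 (up to 15 in KO control 2), and 4 lists had one beside M281, the nearest at a distance of 5 bp. The T3 lists had other peaks there too, of up to 44 fragments beside M557, 29 beside M280, 27 beside M524, 16 beside M436 and 17 beside M281. M380 and M226 had peaks of 2 control lists nearby, of up to 6 and up to 3 fragments. For all members, 550 (77.9%) had a control peak within 5000 bp and 34 had one within 100 bp. For the exchanged sets the shares within 5000 bp of a peak of the excluded lists were 71.4% (control), 69.8% (WT T3 with KO control) and 77.4% (WT control with KO T3). The share over all merged regions was not computed, so 77.9% does not set the members apart. Merged regions of any list were dense throughout, at 1945 to 2266 per 10 Mb by chromosome.

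**Figure D3:**
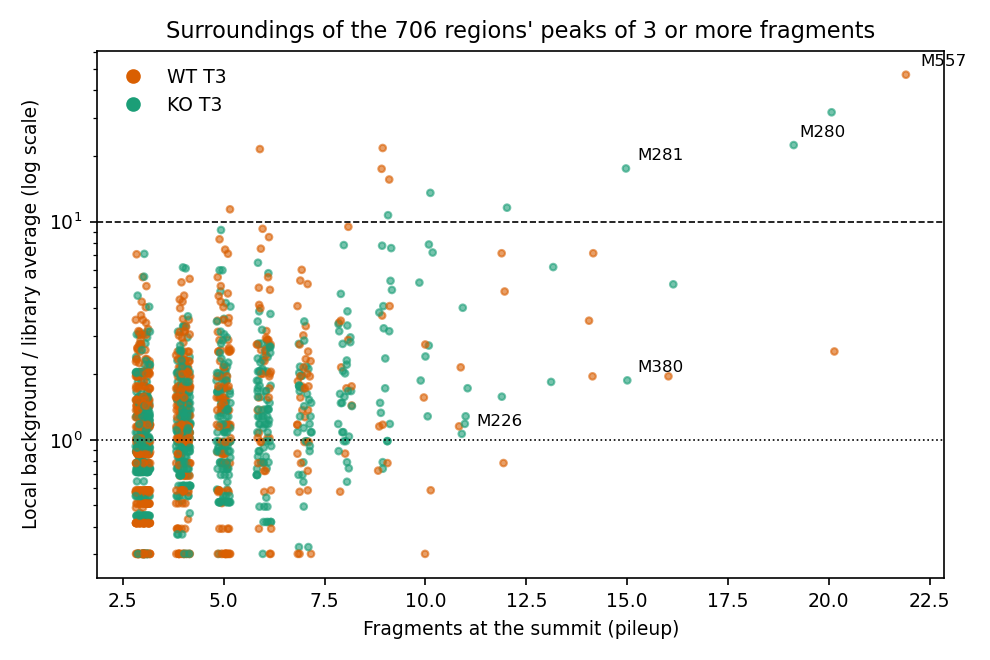
Local background of each member peak of 3 or more fragments relative to its library's average (log axis, the peak's own fragments taken off) against fragments at the summit (shifted sideways at random to part the points), for WT T3 and KO T3 libraries. The dotted and dashed lines mark 1 and 10 times the average, and 71 of 1546 peaks under 0.3 are drawn at 0.3. Values under 1 come from taking off the peak's own fragments, since the background before that was not below the average. M557, M280 and M281 stand above 10. The KO peaks of M226 and M380 stand near 1 and 2, and their WT peaks at 0.58 and 7.16.

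Width and position were similar in members and in the regions of exchanged labels. Members had a median width of 547 bp (quartiles 396 to 719.75 bp), against 518, 508 and 543.5 bp for the control, WT T3 with KO control and WT control with KO T3 regions. Regions with T3 peaks in both genotypes and a control peak had a median of 904.5 bp, and all merged regions 234 bp. Joining several peaks widens a region, so width rises with the number of peaks. The summits of the tallest WT T3 and KO T3 peaks were a median of 122 bp apart, and 308 members (43.6%) had them within 100 bp. That share was 40.9%, 38.3% and 42.8% for the exchanged sets and 44.4% for regions with a control peak.

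Members were found on all 10 chromosomes and more often toward their ends than merged regions in general. Within 5 Mb of a chromosome end (the end was taken as the last peak of any list) lay 181 members (25.6%), 9.04% of all merged regions, 38.0% of regions with T3 peaks in both genotypes and a control peak, and 38.8% of regions seen in all 12 lists. The exchanged sets had 23.2%, 18.7% and 27.4% there. Chromosome 10, the shortest, had the densest members, 10.0 per 10 Mb (40 members), and it was also the densest for control (15.8), WT T3 with KO control (7.76) and WT control with KO T3 (32.5) regions and for all merged regions (2266). Chromosome 4 had the sparsest members, 4.35 per 10 Mb (58 members). Of the members, 20 (2.83%) had another member within 10000 bp, and no group joined in this way held more than 2. The same share was not computed for the exchanged sets, so it does not set the members apart.

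By the lower of the best peaks of both genotypes, the tallest members (20 fragments) stood below the tallest regions of 1 exchanged set (84) and above those of the other two (13 and 8). In WT control and KO T3 alone, a region on chromosome 2 from 102118641 to 102119007 showed 84 fragments in WT control library 2 and 60 and 102 in KO T3 libraries 1 and 2. A second on the same chromosome, from 102078066 to 102078337, showed 39, 87 and 109 in the WT control libraries and 47 in KO T3 library 1. In the control lists alone, the tallest, on chromosome 3 from 110191082 to 110191463, showed 5 and 13 in WT control libraries 1 and 3 and 14 in KO control library 3. It was followed by chromosome 1 from 72744074 to 72744327, with 4 and 12 in WT control libraries 2 and 3 and 8, 23 and 28 in the KO control libraries. The tallest pair in WT T3 and KO control alone, on chromosome 1 from 173129087 to 173129865 and from 179658438 to 179659021, showed 9 fragments in WT T3 library 3 and 8 in KO control library 3. No member came near the height of the chromosome 2 regions.

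Whether a peak found after T3 in one genotype returned after T3 in the other was tested in libraries that had no part in choosing the regions. WT lists alone gave 22587 regions with a T3 peak of 3 or more fragments and no control peak, and 43164 with the reverse. Each KO library was then scored by the share of the first set in which it had a peak over its share of the second, so that its own depth entered both shares. KO T3 1, 2 and 3 had a peak in 2.91%, 3.50% and 1.38% of the WT T3 regions and in 4.26%, 5.34% and 1.74% of the WT control regions. KO control 1, 2 and 3 had a peak in 1.19%, 3.02% and 4.02% of the WT T3 regions and in 1.46%, 3.82% and 5.13% of the WT control regions. All 6 KO libraries thus had peaks in a larger share of the WT control regions, whatever their own treatment.

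The log2 ratio of the shares was -0.50 ± 0.14 in KO T3 and -0.33 ± 0.028 in KO control (SD, n = 3 each). T3 minus control was -0.17 (exact two-sided permutation test over libraries, p = 0.2; adjusted over the 2 tests of this kind by Benjamini-Hochberg, p = 0.3; 3 against 3 cannot go below 0.1). KO T3 3, at -0.34, lay among the KO control values of -0.30 to -0.35, and the other KO T3 libraries lay below them. By rising depth, KO T3 3, 1 and 2 had -0.34, -0.55 and -0.61. KO control 1, 2 and 3 had -0.30, -0.34 and -0.35, so the ratio fell with depth in both groups. A return of WT T3 regions after T3 would be expected to make the difference positive. Because the ratio also varied with depth, the sign alone does not decide this, and the part of depth was not tested.

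The reverse choice gave 21969 regions of KO T3 without KO control and 25492 of KO control without KO T3. WT T3 1, 2 and 3 had a peak in 2.74%, 5.55% and 7.56% of the first and 1.39%, 2.90% and 4.29% of the second. WT control 1, 2 and 3 had one in 4.39%, 10.1% and 9.34% and in 2.23%, 5.15% and 4.58%. The log2 ratio was 0.91 ± 0.084 in WT T3 and 0.99 ± 0.030 in WT control (SD, n = 3 each), a difference of -0.083 (exact two-sided permutation test, p = 0.3, adjusted p = 0.3). It fell with depth over WT T3 1, 2 and 3 (0.98, 0.94 and 0.82) but not over WT control 1, 2 and 3 (0.98, 0.98 and 1.03). In both directions the differences were negative and within or near the spread between libraries, and the part of depth in them was not tested. With peaks at −log10 q of 5 or more both turned positive (0.26 and 0.11, exact permutation p = 0.6 in both).

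**Figure D4:**
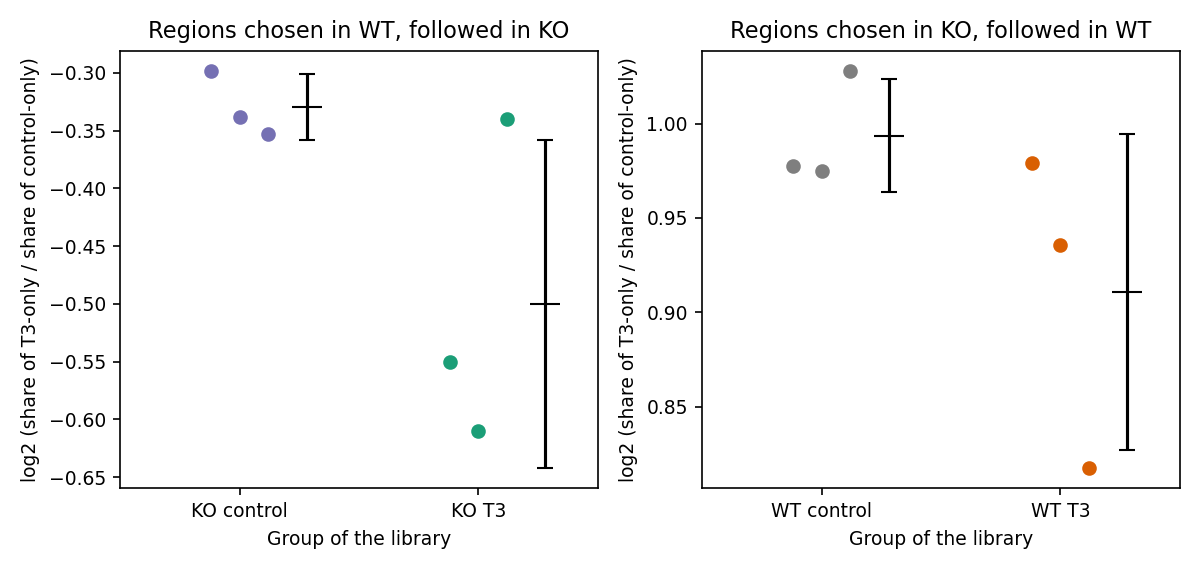
Log2 ratio of the share of T3-only regions to the share of control-only regions in which a library had a peak, for regions chosen in WT and followed in KO (left) and the reverse (right). Points are the 3 libraries of a group and bars the mean ± SD; the axes do not start at 0, the T3 means lie 0.17 and 0.083 below the control means, and the groups overlap in both panels.

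A wider set of regions, chosen in T3 libraries without regard to the controls, was mostly recovered more often in deeper libraries, but not strictly in order of depth. This comparison was added after the data were seen. Regions with 3 or more fragments in 1 WT T3 and 1 KO T3 library were followed into each library not used, over the 9 possible pairs (6 for a T3 library). A peak was present on average in 46.1% of them in KO control 1 and 49.0% in WT T3 1, which held 284375 and 299393 fragments. It was present in 70.0% in KO control 2 and 69.6% in WT T3 2 (606620 and 529290 fragments), and in 76.1% in KO control 3, 78.1% in KO T3 1 and 79.1% in WT T3 3 (858074, 820314 and 774170 fragments). The means of control and T3 libraries were over different pairs, so they are not compared closely. WT T3 1 and KO control 1 differ in both genotype and treatment. In their shared pairs WT T3 1 was higher each time, for instance 47.0% against 41.4% with WT T3 2 and KO T3 1. It was also higher each time in regions chosen in control libraries, for instance 43.2% against 37.6% with WT control 2 and KO control 2. KO T3 3, with 149532 fragments, was above the deeper KO control 1 in most of their shared pairs of T3 libraries. The KO T3 3 list reached down to peaks of 1 fragment (49.0% of its peaks) and the KO control 1 list to 2 fragments. A peak was thus not judged alike in these lists. KO T3 3 had 36.6% against 34.5% with WT T3 2 and KO T3 2. With WT T3 3 and KO T3 1 it had 37.8% against 37.6%, and with WT T3 1 and KO T3 1 50.6% against 51.4%. For the deeper libraries the order varied. WT T3 2 had 72.8% against 74.0% in KO control 2 with WT T3 1 and KO T3 1, and 84.7% against 84.1% with WT T3 1 and KO T3 3. With regions chosen in 1 WT control and 1 KO control library, the values for the same 7 libraries were 38.3%, 48.4%, 68.6%, 65.1%, 76.1%, 73.6% and 74.2%. Pairs differ between libraries, so these are descriptions and no test was made.

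**Figure D5:**
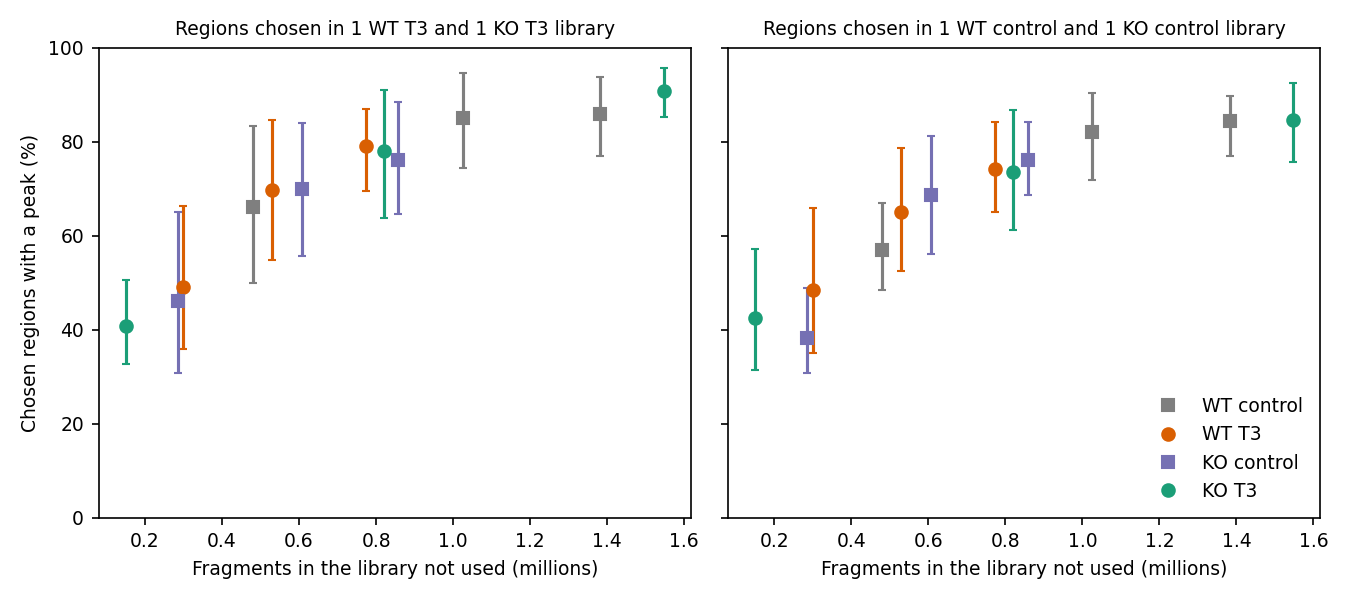
Share of chosen regions in which a library not used for the choice had a peak, against that library's fragments, for regions chosen in T3 (left) and control (right) libraries. Points are means over library pairs, which differ between libraries, and bars their range. Circles are T3 and squares control libraries, and both mostly rise with depth, from 40.7% in the shallowest to 90.8% in the deepest on the left.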

How the data were processed

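The 12 deposited lists of peaks, 1 per library, came from TR ChIP-seq of tail. Bowtie2 2.3.4.1 was the aligner and MACS2 2.1.1.20160309 the peak caller, per the submitters' processing notes. Per the file headers, MACS2 took each library alone, as paired-end fragments freed of duplicates and with no input library, on build 9.1. Its q cutoff was 0.05, its effective genome size 1510000000 bp and its local background window 10000 bp wide. The deposited pileup is a signal (fragments at the summit, unscaled), the fold enrichment a ratio to local background with a constant added, and the authors' p-value and q-value are given as −log10. Without input, a peak does not tell antibody enrichment from a site rich in fragments in any library, and a missing peak means not called at this depth.

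The steps computed here (Python 3.11.15, numpy 2.4.6, pandas 2.3.3) were merging peaks over 1 bp, applying the rule under each label arrangement, and exact permutation tests of the cross-genotype ratios over 20 assignments. Local background was (pileup + 1) / fold − 1. Its lowest value in each list was 1.00 to 1.06 times the library average from fragments, their length and the genome size. Named regions were up to 12 members by number of T3 lists and up to 12 by the lower of the best WT and KO pileups (23 in all), and 2 per exchanged set. The members and lists were chosen with earlier results of these data known. No pair of lists of a group shared more than 11.3% of their regions, so none was taken for a repeat deposit. In a test with simulated peaks, regions were planted in wide gaps between the regions of the deposited lists. Of these, 200 of 200 were recovered among 256432 regions, and 0 of 200 with a planted control peak were called. The test thus covered only the merging and the rule, away from other peaks. Peaks missed for want of depth were not part of it.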

Additional observations from a re-analysis of the deposited data

How the results depend on the processing

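Fewer T3 regions than control regions were found under 18 of 21 alternatives. The 3 exceptions each left out a control library. Leaving out a T3 library takes away peaks that make T3 regions and peaks that exclude control regions. The direction of those alternatives was thus nearly fixed in advance. The counts for T3, control, WT T3 with KO control, and WT control with KO T3, in this order, were 2049, 3528, 2583 and 3198 with peaks of any pileup, 100, 204, 60 and 516 with 5 or more fragments, 167, 253, 58 and 921 with −log10 q of at least 5, and 19, 48, 16 and 148 with 2 of 3 lists per genotype. They were 377, 806, 570 and 750 in 4 libraries of similar depth, an alternative added after seeing the data, as was the absence of other peaks within 1000 bp. With 1 library left out they ranged from 291 to 1000, from 599 to 1736, from 279 to 787 and from 745 to 2357. The lowest values came without KO T3 2, KO control 3, WT T3 3 and KO T3 2. Lists of equal length, summit windows, absence judged on taller peaks and absence within 1000 bp stayed within 1.5 times.

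The cross-genotype differences turned from -0.17 to 0.26 in KO and from -0.083 to 0.11 in WT at −log10 q of at least 5, and the cause was not tested. With 1 library left out they were -0.26 to -0.047 and -0.12 to -0.036. Deviations of libraries with the same replicate number were nearly uncorrelated (correlation -0.0098 to 0.024 over 6 pairs). Fragment length rose with replicate number in every group other than KO T3. It was 151, 179 and 201 bp in WT control 1, 2 and 3, and 171, 189 and 142 bp in KO T3 1, 2 and 3. Whether libraries of the same number were prepared together was not tested. With the replicate block the differences were -0.17 and -0.083 (exact sign flips, p = 0.5 in both). For the 23 named regions, the number of T3 lists was unchanged in 304 of 414 values and lower in 110. Leaving out a control library, taking peaks of any pileup or judging absence on taller peaks could not change this number. Leaving out a T3 library could not raise it. The unchanged values are thus in part fixed in advance. At these depths, an absent peak was not called, which does not show that fragments were absent.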
